A study of Mus musculus with 20 samples.

Results

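A group of 10 genes that mark the intestinal stem cell or answer to Wnt signaling was followed in the cecum of mice fed increasing amounts of raw potato starch. The group holds Lgr5, Ascl2, Smoc2, Lrig1, Sox9, Axin2, Cd44, Ephb2, Ephb3, and Wnt3. These 10 genes were chosen by name for their known roles, with earlier results of these data known, from the 19887 genes of the count table. All 10 passed the filter on low counts, which left 15348 genes for testing. RNA came from the cecum of 20 C57BL/6 mice that had eaten the Total Western Diet (TWD), a rodent diet modeled on American nutrient intakes, from 3 weeks of age for 6 weeks. For another 3 weeks, 5 mice stayed on the TWD (0% RPS) and 5 mice each received the TWD with 2, 5, or 10% (w/w) raw potato starch (RPS), which is rich in starch that escapes digestion before the cecum. All mice were of the same strain and shared the TWD, so each comparison is between amounts of RPS and not between the TWD and chow. The sections of cecum were whole tissue, so the values mix crypt epithelium with muscle, stroma, and leukocytes. In such bulk RNA, fewer cells of a type and less RNA per cell cannot be told apart.

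Stem cells sit at the base of each intestinal crypt and renew the epithelium throughout life. They are kept by Wnt ligands, which bind Frizzled and Lrp receptors, stabilize beta-catenin, and let it act with TCF/LEF factors on target genes. R-spondins strengthen this signal through Lgr receptors, and feedback inhibitors limit it. In the colon and cecum, most Wnt and R-spondin comes from cells of the stroma, whereas in the small intestine Paneth cells also supply Wnt3. Levels of Wnt targets fall as cells leave the crypt base, and the Eph receptors among them help to keep crypt cells in place.

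Total counts per mouse were between 14967798 and 42687283. Cdx2, a master regulator of hindgut identity, averaged 403 to 438 CPM (counts scaled to library size) per diet. The 3 small intestine markers summed to 0.375 to 1.55 CPM. The 8 leukocyte markers summed to medians of 52.1, 49.9, 108, and 248 CPM with 0, 2, 5, and 10% RPS, and of the 7 tested, 6 had estimates above zero with 10% RPS, with a median log2 fold change of 1.26, and 0 passed edgeR's test at an adjusted p of at most 0.05 with a fold change of at least 1.5. The mice of a diet also varied widely, between 32.4 and 243 CPM without RPS and between 54.9 and 301 CPM with 10% RPS.

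Several of the genes are classical targets of beta-catenin and TCF/LEF, so the bases just before their starts were read from the GRCm39 genome with the GENCODE vM39 annotation. Each window held the 250 bases before the outermost annotated start of the gene, on the strand of the gene and 5′ to 3′. The 7-base TCF/LEF motifs CTTTGAT and CTTTGTT were searched on both strands, and then their shared core CTTTG, which both longer motifs contain. The longer motifs were in 0 of the 10 windows, against 7.54% of the 15336 windows of tested genes. The core was in 2 of the 10 windows, those of Cd44 and Wnt3, against 49.2% of all windows. These matches describe the letters of short windows only, and enhancers farther away were not searched. The windows of Lgr5, the defining stem cell marker, and Axin2, the classical Wnt feedback target, are printed beside those that hold the core, which is in capitals (on the opposite strand, as CAAAG, in Cd44).
Lgr5: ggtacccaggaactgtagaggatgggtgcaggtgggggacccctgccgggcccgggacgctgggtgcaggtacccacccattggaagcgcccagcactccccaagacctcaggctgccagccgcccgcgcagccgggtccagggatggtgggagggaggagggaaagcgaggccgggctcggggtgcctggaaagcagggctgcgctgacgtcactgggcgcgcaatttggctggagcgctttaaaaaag
Axin2: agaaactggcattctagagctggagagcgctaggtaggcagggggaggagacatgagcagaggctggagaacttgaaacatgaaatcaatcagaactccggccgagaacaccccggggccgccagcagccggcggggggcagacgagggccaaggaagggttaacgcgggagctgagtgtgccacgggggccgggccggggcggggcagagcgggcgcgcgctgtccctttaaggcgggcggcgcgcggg
Cd44: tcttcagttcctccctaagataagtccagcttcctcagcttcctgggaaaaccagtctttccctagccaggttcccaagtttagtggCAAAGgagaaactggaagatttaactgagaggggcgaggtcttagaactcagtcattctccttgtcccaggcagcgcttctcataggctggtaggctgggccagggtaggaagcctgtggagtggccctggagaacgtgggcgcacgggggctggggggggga
Wnt3: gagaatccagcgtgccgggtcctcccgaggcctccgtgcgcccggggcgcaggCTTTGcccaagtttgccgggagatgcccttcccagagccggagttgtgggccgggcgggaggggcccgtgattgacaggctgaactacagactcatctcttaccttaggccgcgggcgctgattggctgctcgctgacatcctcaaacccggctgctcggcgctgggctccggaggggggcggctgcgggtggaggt

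The Lgr5 window is chr10:115423686-115423935, and its gene spans chr10:115286216-115423685 on the minus strand. That of Axin2 is chr11:108810919-108811168, upstream of the gene at chr11:108811169-108841609 on the plus strand. The canonical transcript of Axin2 starts farther in, at chr11:108811638, and the bases just before that start were not searched. The Cd44 window is chr2:102732011-102732260 before the gene at chr2:102641486-102732010 on the minus strand, and the core lies 163 to 159 bases before the start. The Wnt3 window is chr11:103664726-103664975 before the gene at chr11:103664976-103708853 on the plus strand, with the core 197 to 193 bases before the start. The median GC content of the 10 windows was 64.6%, against 53.6% over all windows.

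The remaining genes are Ascl2 (chr7:142520564-142523006, minus strand), Smoc2 (chr17:14499735-14625074, plus strand), Lrig1 (chr6:94581510-94677242, minus strand), Sox9 (chr11:112673009-112678586, plus strand), Ephb2 (chr4:136374850-136563351, minus strand), and Ephb3 (chr16:21023495-21042057, plus strand). All 10 are annotated as protein-coding. Lgr5 overlaps A930009A15Rik and Lrig1 overlaps Slc25a26, each on the other strand, and whether strand was used in the counting is not given in the sources used here, so some reads could belong to those partners.

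The levels of the genes differed far more than they moved with diet. Per kb of annotated exon, Cd44, a hyaluronan receptor found on crypt cells and also on leukocytes and stromal cells, was highest at 8.58 ± 1.38 CPM per kb (SD over 20 mice). Lrig1, a membrane protein that restrains EGF receptors and marks crypt base cells, followed at 8.45 ± 0.71, and 11 of the 20 mice had more Cd44 than Lrig1 on this scale, so these neighbors did not differ beyond their spread. Sox9, a transcription factor of crypt progenitors, was at 6.00 ± 0.82 and was below Lrig1 in all 20 mice. Ephb2 was at 4.81 ± 0.68, below Sox9 in 19 of 20 mice. Ascl2, the transcription factor that sets the stem cell state, was at 3.15 ± 0.83, Ephb3 at 2.51 ± 0.27, and Axin2 at 2.18 ± 0.48 CPM per kb, and these neighbors crossed in 5 and 4 mice, respectively. Smoc2, a secreted matrix protein enriched in Lgr5+ cells, was at 1.60 ± 0.20, and Lgr5, the R-spondin receptor by which these stem cells are recognized, was at 1.04 ± 0.18. Lgr5 was below Smoc2 in all 20 mice. Wnt3 was lowest at 0.126 ± 0.056 CPM per kb, and its highest mouse (0.280) was under the lowest for Lgr5 (0.720). The order depends on the length used. With the length of the canonical transcript, Lrig1 was first, Smoc2 moved from eighth to the fifth place, Ascl2 from the fifth to eighth, and Lgr5 and Wnt3 stayed ninth and last.

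**Figure D1:**
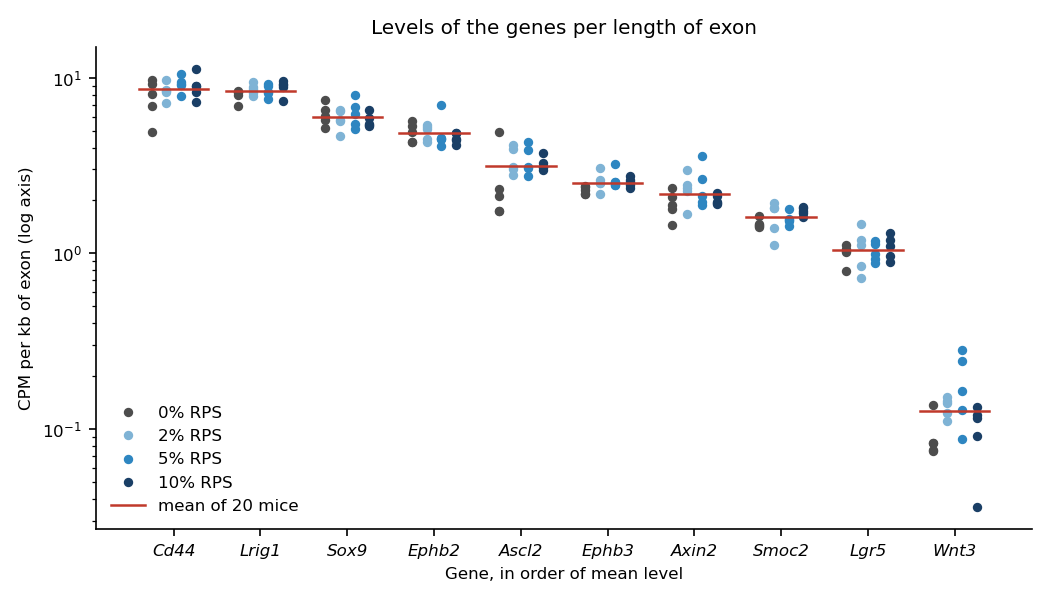
Level of each gene in CPM per kb of annotated exon (log axis) in each of the 20 mice, colored by the percentage of RPS, with a line at the mean of all mice. The genes run from Cd44 at 8.58 to Lgr5 at 1.04 CPM per kb, and Wnt3 lies apart at 0.126.

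Lgr5 did not follow the amount of RPS. It was at 10.5, 10.8, 10.5, 11.4, and 8.15 CPM in the 5 mice without RPS and at 15.1, 12.1, 8.72, 7.39, and 11.4 CPM in those with 2% RPS. The mice with 5% RPS had 9.56, 12.0, 11.6, 9.06, and 10.2 CPM, and those with 10% RPS had 13.4, 12.1, 11.2, 9.89, and 9.15 CPM. The diets overlapped throughout, and both the highest and the lowest of the 20 mice had eaten 2% RPS. The change with 10% RPS was 0.12 ± 0.16 (log2 fold change ± SE), with a 95% interval from 0.86-fold to 1.37-fold, and edgeR's quasi-likelihood test gave an adjusted p of 0.73 (Benjamini-Hochberg over all genes tested). With 5 and 2% RPS the estimates were 0.03 ± 0.16 and 0.09 ± 0.16.

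Ascl2 had an arrangement of mice that no other gene of the 10 showed. This arrangement was picked out after the values were seen, and its share among all genes tested was not counted. Without RPS, Ascl2 was at 3.45, 2.83, 3.79, 2.82, and 7.95 CPM. It was at 4.57, 4.94, 6.74, 6.40, and 5.05 CPM with 2% RPS, at 4.47, 5.07, 6.34, 7.05, and 4.99 CPM with 5% RPS, and at 5.02, 5.06, 5.34, 6.08, and 4.88 CPM with 10% RPS. Thus 4 of the 5 mice without RPS were below all 15 mice that received RPS, whose lowest value was 4.47 CPM, and the other one (mouse 5) was above the other 19 mice. The estimates were 0.33 ± 0.23, 0.41 ± 0.23, and 0.41 ± 0.23 with 10, 5, and 2% RPS, and edgeR's adjusted p values were 0.44, 0.46, and 0.89. None passed the threshold of an adjusted p of at most 0.05 with a fold change of at least 1.5. When mouse 5 of the 0% RPS diet was left out, the log2 fold changes were 0.72 with 10% RPS and 0.80 with 5% RPS, and the edgeR adjusted p values were 0.0572 and 0.0503, still not past the threshold. The 95% interval with 10% RPS, over all mice, ran from 0.90-fold to 1.76-fold, so a change of 1.5-fold was not excluded for this gene.

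Smoc2 was at 15.1, 13.5, 13.2, 13.7, and 13.3 CPM without RPS and at 14.9, 16.8, 15.9, 17.1, and 16.2 CPM with 10% RPS. Only 1 mouse without RPS reached into the range of the mice with 10% RPS. The estimate of 0.23 ± 0.12 had the lowest unadjusted p of the 10 genes in this comparison (0.0657) and an edgeR adjusted p of 0.29. The mice with 2% RPS ranged from 10.4 to 18 CPM and those with 5% RPS from 13.3 to 16.7 CPM. Lrig1 was the steadiest of the 10 genes, with a coefficient of variation of 8.24% within diets. It averaged 50.6 ± 4.1 CPM (SD, n = 5) without RPS, 54.4 ± 4.0 with 2%, 53.5 ± 4.1 with 5%, and 55.7 ± 5.4 with 10% RPS. The estimate with 10% RPS was 0.14 ± 0.08, and the interval from 0.98-fold to 1.24-fold (edgeR adjusted p = 0.35) excludes changes of 1.5-fold in either direction.

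Axin2, which encodes a scaffold that promotes the destruction of beta-catenin and is itself induced by Wnt, was at 14.5, 10.0, 13.1, 12.4, and 16.4 CPM without RPS. It was at 17.0, 16.3, 20.7, 11.6, and 15.7 CPM with 2% RPS, at 13.6, 14.7, 18.5, 24.9, and 13.1 CPM with 5% RPS, and at 14.7, 13.6, 13.3, 13.2, and 15.2 CPM with 10% RPS. The mice on the middle amounts were the most spread, and those with 10% RPS stayed within the range of the mice without RPS. The log2 fold change was 0.35 ± 0.17 with 5% RPS, of which 0.16 remained when mouse 4 of that diet, at 24.9 CPM, was left out. With 10% RPS it was 0.08 ± 0.17, and edgeR's adjusted p values were 0.38 and 0.85.

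Sox9 ranged from 21.6 to 31.1 CPM without RPS and from 22.1 to 27.4 CPM with 10% RPS, with an estimate of -0.12 ± 0.12 and an edgeR adjusted p of 0.65. Sox9 and Ephb2 were the 2 genes of the group with a negative estimate at 10% RPS. Cd44 was at 65.7, 54.4, 46.6, 62.1, and 33.4 CPM without RPS and at 76.0, 56.0, 60.7, 49.5, and 60.8 CPM with 10% RPS. Mouse 5 without RPS, highest in Ascl2, was lowest of all 20 in Cd44. The Cd44 estimates were 0.21 ± 0.14 with 10% RPS and 0.25 ± 0.14 with 5% RPS, and the edgeR adjusted p values were 0.44 and 0.47. Without mouse 5 of the 0% RPS diet, the Cd44 estimates were 0.098 and 0.13.

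Ephb2 and Ephb3 encode receptors for ephrin-B ligands, which are higher on cells that have left the crypt base. Ephb3 was at 16.6, 15.8, 16.7, 15.0, and 15.0 CPM without RPS and at 17.0, 17.6, 17.7, 22.3, and 17.0 CPM with 5% RPS. It was the only gene of the 10 whose values in a comparison did not overlap, which 3.57% of all genes tested also showed with 5% RPS. The difference was small, 0.21 ± 0.09 or 1.16-fold, and edgeR's unadjusted p of 0.0355 became 0.33 after adjustment. Without mouse 4 with 5% RPS, the Ephb3 estimate was 0.13. With 2 and 10% RPS the Ephb3 estimates were 0.17 ± 0.09 and 0.15 ± 0.09. Ephb2 averaged 61.9 ± 7.7, 61.9 ± 5.9, 62.3 ± 15.0, and 57.4 ± 3.8 CPM (SD, n = 5) with 0, 2, 5, and 10% RPS. The wide spread with 5% RPS came from mouse 4, at 88.8 CPM, while the other mice of that diet were between 51.7 and 57.3 CPM. The Ephb2 estimate with 10% RPS was -0.11 ± 0.12 (edgeR adjusted p = 0.66).

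Of the ligands, Ephb partners Efnb1 and Efnb2 had lower estimates with 10% RPS, at -0.40 ± 0.18 and -0.17 ± 0.08, and Efnb3 had 0.19 ± 0.22. None passed the threshold, and the edgeR adjusted p values were 0.23, 0.24, and 0.68. Without mouse 5 of the 0% RPS diet, the Efnb1 estimate was -0.15.

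Wnt3, the only ligand of the group, was close to the limit of detection. It had between 3 and 28 counts per mouse, and a floor of 3 counts, below which no level is claimed, equals 0.0698 to 0.190 CPM depending on the library. It was at 0.260, 0.239, 0.263, 0.235, and 0.430 CPM without RPS, at 0.389, 0.348, 0.479, 0.450, and 0.442 CPM with 2% RPS, at 0.274, 0.403, 0.761, 0.881, and 0.518 CPM with 5% RPS, and at 0.418, 0.361, 0.284, 0.377, and 0.113 CPM with 10% RPS. As for Ascl2, 4 mice without RPS formed a tight low group and mouse 5 stood above them. The estimates did not follow the amount of RPS, at 0.55 ± 0.35 with 2%, 0.94 ± 0.35 with 5%, and 0.11 ± 0.36 with 10% RPS. The value with 5% RPS had an unadjusted p of 0.0133 and an edgeR adjusted p of 0.22. In the test of any difference among the 4 diets, the unadjusted p was 0.0461 and the edgeR adjusted p was 0.44.

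**Figure D2:**
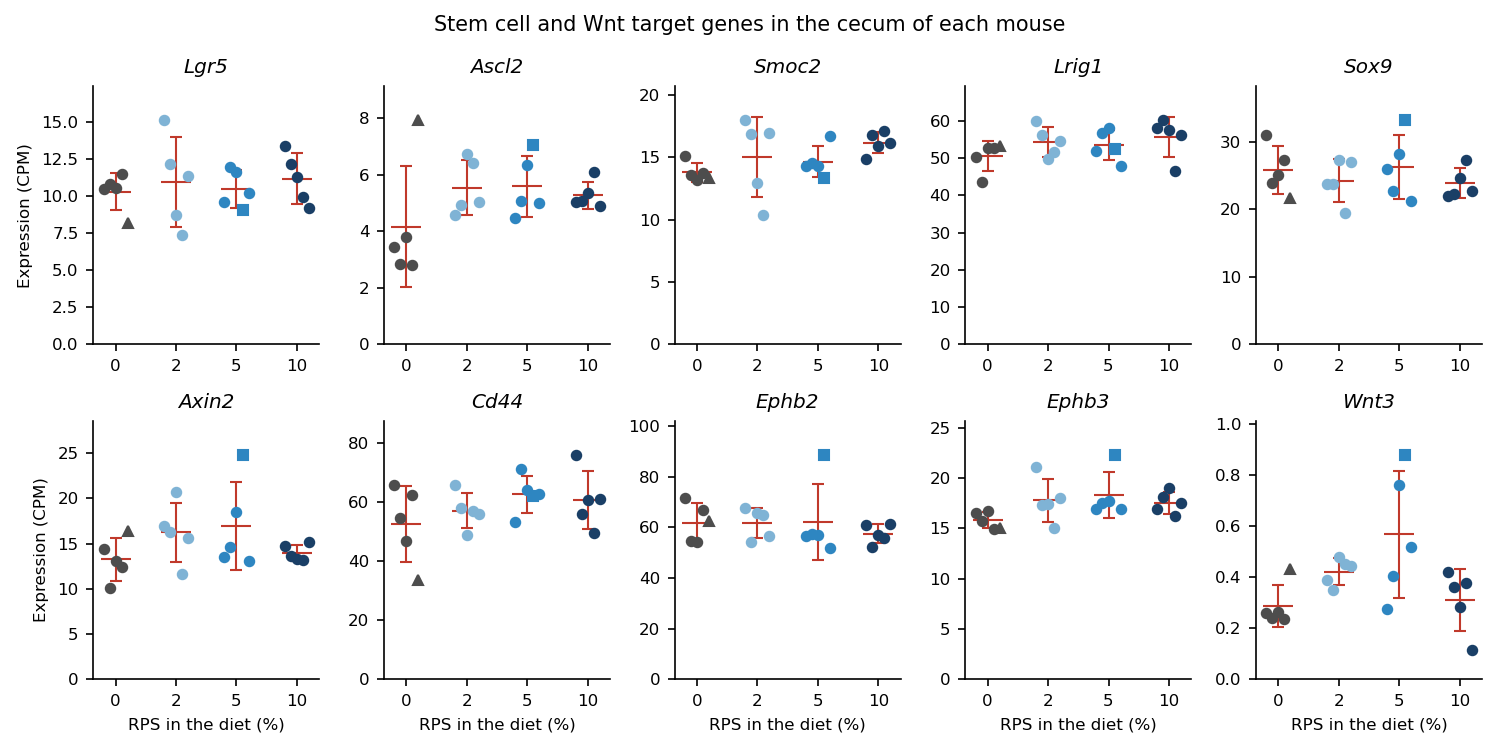
Expression of each gene in CPM in each mouse, by percentage of RPS, with the mean and SD of the 5 mice in red. The triangle is mouse 5 without RPS, highest in Ascl2 (7.95 CPM) and lowest in Cd44 (33.4 CPM), and the square is mouse 4 with 5% RPS, highest of all mice in Axin2, Sox9, Ephb2, Ephb3, and Wnt3.

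Counted together, 0 of the 10 genes passed the threshold with 10% RPS, where 1.04% of all genes tested did, and 0 passed with 5% RPS (0.195% of all genes). With 2% RPS, and between 10 and 2% RPS, 0 of the 10 and 0% of all genes passed. None passed for a straight trend with the percentage of RPS (1.11% of all genes) or for any difference among the diets (0.0912%). At an unadjusted edgeR p under 0.05, the counts were 0 of 10 with 10% RPS (19.5% of all genes), 2 of 10 with 5% RPS (13.3%), 0 with 2% RPS (5.77%), 0 between 10 and 2% RPS (4.69%), 0 for the trend (18.8%), and 1 for any difference (11.1%). The 2 with 5% RPS were Ephb3 and Wnt3. DESeq2's Wald test, fitted to the same counts, also placed 0 of the 10 past the threshold. No member had non-overlapping diets with 10% RPS (4.88% of all genes), with 2% RPS (1.09%), or between 10 and 2% RPS (0.658%).

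The estimates against 0% RPS were mostly above zero but small. They were higher in 8 of 10 genes with 10% RPS, 10 of 10 with 5%, and 8 of 10 with 2% RPS. Of all genes tested, 50.9, 49.5, and 51% had higher estimates, respectively. The 10 genes had medians of 0.13, 0.15, and 0.12 on the log2 scale, whereas the medians over all genes tested were between -0.0018 and 0.0041. These comparisons share the same 5 mice without RPS, so they are not separate observations. Between 10 and 2% RPS, which leaves those mice out, 4 of 10 estimates were higher (51.2% of all genes) and the median was -0.02. The intervals show what size of change the data allow. With 10% RPS the 95% interval lay within 1.5-fold in both directions for 8 of the 10 genes, all except Ascl2 and Wnt3, and this held for 60.5% of all genes. It lay within 1.5-fold for 7 genes with 5% RPS (63.5% of all genes), for 7 with 2% RPS (67.7%), and for 9 between 10 and 2% RPS (67.5%).

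**Figure D3:**
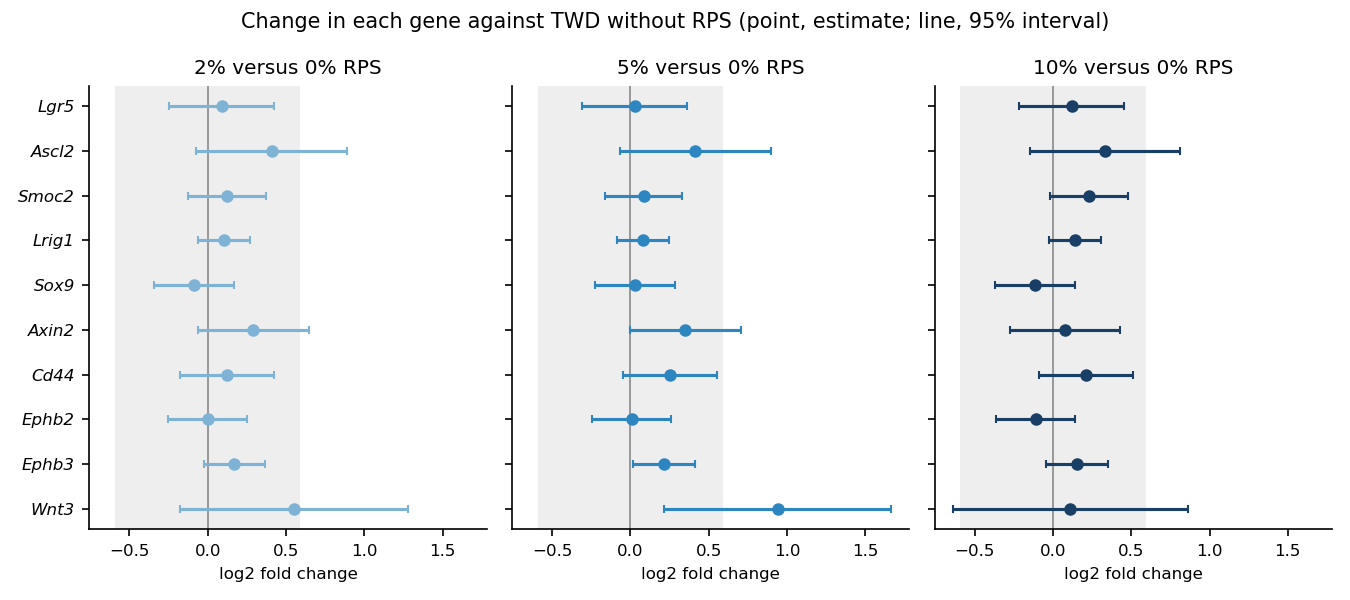
Log2 fold change of each gene with 2, 5, and 10% RPS against 0% RPS, as the estimate with its 95% interval from edgeR (n = 5 mice per diet). The gray band marks changes under 1.5-fold, and with 10% RPS the intervals of 8 of the 10 genes stay inside it.

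Mouse 4 with 5% RPS was highest of all 20 in 5 of the 10 genes, and mouse 4 with 2% RPS was lowest in 3. Levels of smooth muscle markers also differed between mice. The 5 smooth muscle markers (Acta2, Myh11, Des, Actg2, and Tagln) summed to 5293 CPM in mouse 5 without RPS, against 2257 to 3079 CPM in the other mice of that diet, and to 8751 CPM in mouse 4 with 5% RPS, the highest of all mice. In mouse 4 with 2% RPS the sum was 3120 CPM, within the 2985 to 5212 CPM of its diet. Over the diets, this sum had medians of 2949, 3891, 5893, and 5284 CPM with 0, 2, 5, and 10% RPS. Across the 20 mice the mean log2 CPM of these markers had a Pearson r of 0.65 with Ascl2 (Spearman rho = 0.59) and of 0.60 with Wnt3 (rho = 0.60). After the means of each diet were removed, r was 0.56 for Ascl2 and 0.62 for Wnt3. Of the other genes highest in mouse 4 with 5% RPS, Axin2 had r of 0.57 with smooth muscle, Ephb3 0.54, Sox9 0.11, and Ephb2 0.099. In permutation tests with adjustment over 60 pairs of gene and marker list, 0 had an adjusted p of at most 0.05 for r. The lowest was 0.0732, shared by Ascl2 and Wnt3 with smooth muscle, Ephb3 with the colonocyte markers (r = -0.62, rho = -0.69), and Cd44 with the cycling cell markers (r = 0.58, rho = 0.52). The adjusted p of rho for these pairs was between 0.0564 and 0.12. The 8 pan-epithelial markers all had estimates below zero with 10% RPS, with a median of -0.19, and none passed the threshold. The part of these cell types in the values of the 10 genes was not tested beyond the fits with epithelial and leukocyte covariates.

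The 10 genes did not rise and fall as a block from mouse to mouse. Of the 45 pairs, 35 had a positive Pearson r of log2 CPM over the 20 mice, and 32 after the means of each diet were removed. With adjustment over the 45 pairs in permutation tests, 3 pairs had an adjusted p of at most 0.05. Lgr5 and Smoc2, which share the crypt base stem cell, had r = 0.65 (adjusted p = 0.0477, rho = 0.55, adjusted p = 0.12), and r = 0.65 within diets. Axin2 and Ephb3 had r = 0.65 (adjusted p = 0.0477, rho = 0.58, adjusted p = 0.12), and Ascl2 and Wnt3 had r = 0.63 (adjusted p = 0.0477, rho = 0.77, adjusted p = 0.0081). Wnt3 had only 3 to 28 counts per mouse, close to the limit of detection. When the 2 mice farthest from the median of the first gene were left out, r was 0.37 for Lgr5 and Smoc2, 0.40 for Axin2 and Ephb3, and 0.59 for Ascl2 and Wnt3, a step that also narrows the range of the first gene. The permutation tests count all 20 mice, of which none is paired with another. The calls were close to the limit, since with a prior count of 0.5 in the log2 CPM 0 pairs passed, and with single mice left out 0 to 7 pairs did, of which 0 to 3 were among these 3.

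Other pairs with the stem cell markers Lgr5 and Ascl2 had adjusted permutation p values of r above 0.05. Lgr5 had r = 0.50 with Lrig1 (adjusted permutation p = 0.11), where rho was 0.68 (adjusted p = 0.031). With Cd44, Lgr5 had r = 0.57 (adjusted permutation p = 0.0639, rho = 0.53, adjusted p = 0.13). The r of Lgr5 and Ascl2 was -0.41 (adjusted permutation p = 0.26) and -0.57 within diets. Ascl2 had r = 0.61 with Axin2 (adjusted permutation p = 0.0513, rho = 0.48, adjusted p = 0.18), and its r with Cd44 was -0.31 (adjusted permutation p = 0.39) and -0.69 within diets.

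**Figure D4:**
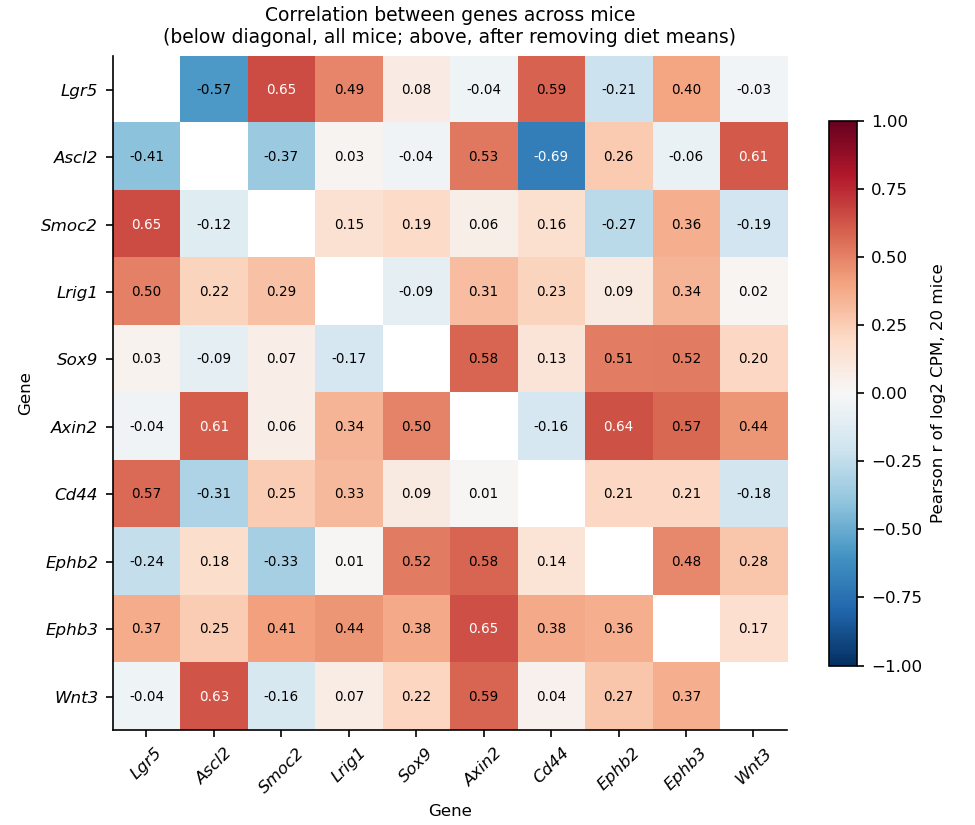
Pearson r of log2 CPM for each pair of genes over 20 mice, below the diagonal for all mice and above it after the means of each diet were removed. Lgr5 and Smoc2 (0.65) and Ascl2 and Wnt3 (0.63) are positive, and Ascl2 is negative with Lgr5 (-0.41, within diets -0.57).

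The genes with the most similar pattern over the 20 mice were sought among 13569 genes with a mean of at least 1 CPM, as a description without a test. For Lgr5 the closest was Slc12a2, a chloride cotransporter of crypt base cells that also stood on the list of other crypt base genes, with r = 0.88, followed by Armc8 and Ckap2, a gene of the mitotic spindle, both at 0.82. Oaz2 (0.89), Arhgef40 (0.87), and Mustn1 (0.84), a gene of the musculoskeletal system, were closest to Ascl2. Smoc2 was closest to Sord (0.77), Clca3a1 (0.75), and Nrep (0.74). For Axin2 these were Ybx2, Zfp36l2, and Auts2, for Sox9 Crtc3, Sik1, and Rxrb, and for Ephb2 Stip1, 1810055G02Rik, and Fat1, with r between 0.74 and 0.88. Ephb3 was closest to Fxr1, Noxred1, and Tsbp1, Lrig1 to Ankle1, Wdr90, and Sfmbt1, Cd44 to Utp20, Fndc3b, and Taf4, and Wnt3 to Rmdn3, Plekha4, and Rnd2, with r between 0.75 and 0.85. All points share their library and its normalization.

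Other genes of the crypt base and of the pathway were examined from lists. With 10% RPS, 50.9% of all genes tested had estimates above zero. Of 12 tested genes of the crypt base list, all 12 had estimates above zero with 10% RPS, with a median of 0.13, but only Tnfrsf19 passed the threshold. Tnfrsf19 (Troy), a receptor that marks crypt base stem cells and dampens Wnt signaling, rose by 0.85 ± 0.21 with 10% RPS (edgeR adjusted p = 0.0433). It was at 2.31 ± 0.37, 3.40 ± 0.93, 3.25 ± 0.84, and 4.15 ± 0.83 CPM (SD, n = 5) with 0, 2, 5, and 10% RPS, and its values with 0 and 10% RPS did not overlap. The call was kept in 11 of 20 fits with 1 mouse left out and was weakest without mouse 3 with 10% RPS, with 0.74 and an edgeR adjusted p of 0.14. It was also lost with the covariate for pan-epithelial markers, with 0.77 and an adjusted p of 0.30, and with that for leukocyte markers, with 0.84 and an adjusted p of 0.0799. With the pan-epithelial covariate, 0 of all genes tested passed in any comparison, so that loss is not particular to Tnfrsf19. Cdk6, the next by unadjusted p, had 0.19 ± 0.10 (edgeR adjusted p = 0.30).

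Among 13 other Wnt target and feedback genes, 9 estimates were above zero with 10% RPS and the median was 0.13, with 0 past the threshold. Myc, a growth regulator, had -0.56 ± 0.27 (edgeR adjusted p = 0.25), and Sox4 had 0.17 ± 0.09 (adjusted p = 0.30). Of 14 Wnt ligands, R-spondins, and ligand secretion genes, 12 were above zero, and 0 passed, with Wnt11 at 0.81 ± 0.31 (edgeR adjusted p = 0.16) and Wnt10b at 1.46 ± 0.59 (adjusted p = 0.18), a gene with 1 to 31 counts per mouse in these 2 diets. Of 15 receptors, 9 were above zero, and 0 passed, with Ryk at -0.22 ± 0.06 (edgeR adjusted p = 0.0725) and the coreceptor Lrp6 at 0.28 ± 0.11 (adjusted p = 0.17). Of 10 Wnt antagonists, 8 were above zero, and 0 passed, with Sfrp4 at 1.87 ± 0.67 (edgeR adjusted p = 0.14) and Dkk3 at 0.21 ± 0.09 (adjusted p = 0.21). The Sfrp4 value rested on mouse 2 with 10% RPS, without which it was 0.72, and the mice without RPS had between 1 and 7 counts of this gene, so some were under the floor of 3 counts. The 18 genes that carry the signal inside the cell had a median of 0.01, and 0 passed, with Gsk3a at -0.35 ± 0.15 (edgeR adjusted p = 0.22) and Tcf7l2 at -0.17 ± 0.09 (adjusted p = 0.29). Without mouse 5 of the 0% RPS diet these were -0.13 and -0.098.

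BMP signaling opposes Wnt along the crypt axis, and its antagonists are made below the crypts. Of 13 genes of this list, 6 were above zero and 7 below, and Grem1 passed the threshold. Grem1, a BMP antagonist of the stroma and muscle beneath the crypts, was at 9.40 ± 1.55 CPM without RPS and 12.1 ± 2.9, 12.5 ± 3.7, and 18.2 ± 3.0 CPM with 2, 5, and 10% RPS (SD, n = 5). It rose by 0.95 ± 0.19 with 10% RPS (edgeR adjusted p = 0.0251), without overlap, and also passed for the trend (adjusted p = 0.0297). All 5 smooth muscle markers also had estimates above zero, with Actg2 past the threshold at 1.28 ± 0.30 (edgeR adjusted p = 0.0358) and Des at 0.97 ± 0.35, Tagln at 0.52 ± 0.19, Myh11 at 0.48 ± 0.28, and Acta2 at 0.36 ± 0.20 not past it. Without mouse 5 of the 0% RPS diet, Myh11 was at 0.87 and Acta2 at 0.60. Actg2 lost the call with the pan-epithelial and leukocyte covariates (edgeR adjusted p = 0.26 and 0.0603). It also passed with 5% RPS, at 1.53 ± 0.30 (edgeR adjusted p = 0.0425) without overlap, a call kept in 8 of the 20 fits with 1 mouse left out, kept with the leukocyte covariate (adjusted p = 0.0339), and lost with the pan-epithelial one (adjusted p = 0.23). The Grem1 call was lost without mouse 3 with 10% RPS, where the log2 fold change was 0.87 (edgeR adjusted p = 0.0819), with the pan-epithelial covariate, at 0.89 (adjusted p = 0.21), and with the leukocyte covariate, at 0.79 (adjusted p = 0.0598). The trend was kept in 14 of the 20 fits with 1 mouse left out (edgeR adjusted p = 0.10 without mouse 3 with 10% RPS) and was lost with both covariates (edgeR adjusted p = 0.43 and 0.0789). The part of muscle in the Grem1 value was not tested. Smad7, an intracellular inhibitor of BMP and TGF-beta signaling, passed for the trend (edgeR adjusted p = 0.0468), with a log2 fold change of -0.46 ± 0.11 with 10% RPS, which is under 1.5-fold. This trend passed in 6 of the 20 fits with 1 mouse left out and was lost with the pan-epithelial and leukocyte covariates (edgeR adjusted p = 0.55 and 0.12). As 0 of all genes passed with the pan-epithelial covariate, its losses are not particular to Grem1, Actg2, or Smad7.

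The reserve and regenerative stem cell list had 4 of 8 estimates above zero and 0 past the threshold with 10% RPS, with Ccn1 at -0.73 ± 0.26 (edgeR adjusted p = 0.14) and Hopx at 0.26 ± 0.11 (adjusted p = 0.19). Of 7 Notch genes 0 passed, with the ligand Dll4 at 0.28 ± 0.10 (edgeR adjusted p = 0.12) and the target Hes1 at -0.30 ± 0.12 (adjusted p = 0.17). The EGF receptor family and the relatives of Lrig1 had Erbb3 at 0.18 ± 0.12, Egfr at -0.13 ± 0.10, Erbb2 at 0.13 ± 0.10, Lrig2 at 0.11 ± 0.12, and Lrig3 at -0.05 ± 0.12, and none passed. The cycling cell markers, with a median of 0.06, had 0 of 8 past the threshold, with Mki67 at 0.32 ± 0.15 (edgeR adjusted p = 0.26) and Top2a at 0.32 ± 0.20 (adjusted p = 0.38).

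**Figure D5:**
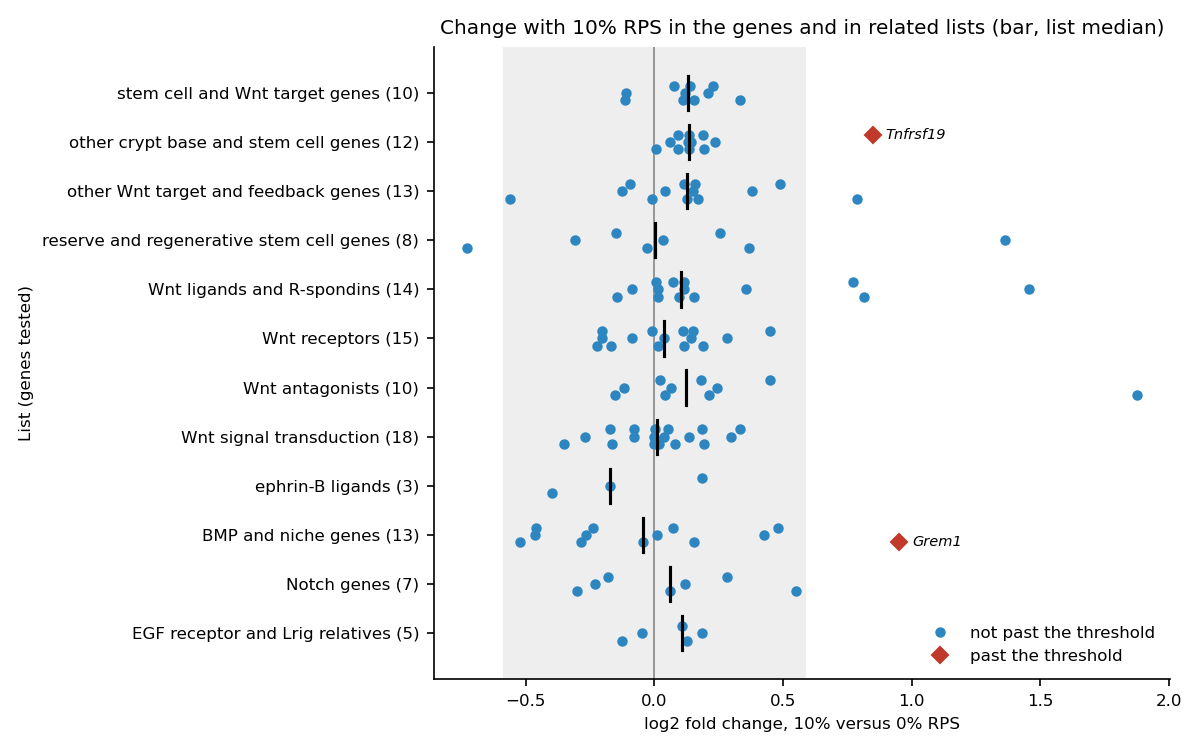
Log2 fold change with 10% against 0% RPS for each tested gene of the stem cell and Wnt target group and of 11 related lists, with a bar at the list median and a gray band for changes under 1.5-fold. Red diamonds are genes past the threshold, Tnfrsf19 at 0.85 and Grem1 at 0.95.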

How the data were processed

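RNA from the cecum of 20 mice, 5 per diet, was measured by RNASeq of stranded poly(A) libraries with single-end reads of 50 bases. The authors deposited raw read counts for each gene in each mouse. Before counting, they trimmed nucleotides of low quality, dropped reads with several ambiguous bases, and aligned what was left to GRCm39 with the CLC Genomics Workbench. The annotation release, the strand setting, and the handling of multimapping reads are not given in the sources used here. Mice were grouped by the treatment in the labels and numbered 1 to 5 within a diet in the order of deposition, so the numbers pair no mice. The labels do not say whether mice shared cages or litters.

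Counts were analyzed with edgeR 4.0.16 in R 4.3.3 by filterByExpr (minimum count 10, minimum total 15), TMM, and a robust quasi-likelihood model of the 4 diets, with DESeq2 1.42.0 as an alternative. The methods of the paper name DESeq2, and edgeR was used here as the main test with the same thresholds, an adjusted p of at most 0.05 (Benjamini-Hochberg over 15348 genes) and a fold change of at least 1.5, except for the trend and for any difference, which had no fold threshold. CPM were scaled by TMM. Log2 CPM used a prior count of 2. Correlations were tested with 100000 two-sided permutations in scipy 1.17.1 with numpy 2.4.6 and pandas 2.3.3 (Python 3.11.15), and figures were drawn with matplotlib 3.10.9. Gene positions and exon lengths came from GENCODE vM39, in which 19827 of the identifiers were found. The model was tested on simulated counts of 15348 genes, in which it called 73 of 100 genes changed 2-fold, 97 of 100 changed 4-fold, and 3 unchanged genes.

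The 10 genes and the lists were chosen with earlier results of these data known. Besides the 10 genes, the text names list genes past the threshold in any comparison, the 2 with the lowest unadjusted p with 10% RPS in each list, lists of 5 or fewer in full, and the 3 genes most like each of the 10. Some genes of the marker lists are not reported here. The search for the 5-base core and the correlations with marker lists were added after seeing the data. The floor of 3 counts covers counting error only, because the libraries had no molecular identifiers. Alternatives were DESeq2 size factors, upper quartile scaling, DESeq2's test, no filter, at least 10 counts in every mouse, a model without robust empirical Bayes, only the 2 diets compared, no fold threshold, covariates for the pan-epithelial and leukocyte markers, the rank of the dose, a prior count of 0.5, and each mouse left out in turn.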

Additional observations from a re-analysis of the deposited data

Results flagged for a closer look

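Of the 40 groups of 5 mice (10 genes in 4 diets), 5 held a mouse whose distance to its nearest neighbor was large against the range of the group (ratio above 0.71), and chance gives such a mouse in about 1 in 20 groups. Without RPS these were mouse 5 in Ascl2 (7.95 CPM) and in Wnt3 (0.430 CPM), and mouse 1 in Smoc2 (15.1 CPM). With 5% RPS they were mouse 4 in Ephb2 (88.8 CPM) and in Ephb3 (22.3 CPM). All were the highest of their group. In mouse 5 without RPS and in mouse 4 with 5% RPS the smooth muscle markers were also the highest of their diets, at 5293 and 8751 CPM summed, and the part of muscle in these values was not tested.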

How the results depend on the processing

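In every comparison and under every alternative that was run, 0 of the 10 genes passed the threshold. The lowest edgeR adjusted p of any of them was 0.0503, for Ascl2 with 5% RPS without mouse 5 of the 0% RPS diet. Of 1484 member estimates under an alternative, 68 changed sign, all of them small.

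With 10% RPS, the covariate for pan-epithelial markers turned Lgr5 to -0.028 and Ephb2 to 0.018, and with single mice left out Axin2 ran from -0.0062 to 0.18 and Wnt3 from -0.017 to 0.33. With 5% RPS, the pan-epithelial covariate gave -0.10 for Lgr5, -0.0098 for Smoc2, and -0.0045 for Sox9, and the leukocyte covariate gave -0.012 for Sox9 and -0.027 for Ephb2. With single mice left out, Lgr5 ran from -0.041 to 0.073, Sox9 from -0.074 to 0.10, and Ephb2 from -0.16 to 0.069. With 2% RPS, Ephb2 (-0.0014) became 0.020 with upper quartile scaling, 0.0035 with no filter, 0.0019 with at least 10 counts in every mouse, 0.0052 with only the 2 diets compared, and 0.039 with the pan-epithelial covariate, and with single mice left out it ran from -0.045 to 0.057 and Lgr5 from -0.050 to 0.20. Between 10 and 2% RPS, the pan-epithelial covariate gave -0.057 for Lgr5 and 0.12 for Ascl2. With single mice left out, Lgr5 ran from -0.075 to 0.18, Ascl2 from -0.13 to 0.016, Sox9 from -0.093 to 0.030, Ephb3 from -0.067 to 0.051, and Cd44 from -0.0068 to 0.16.

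For the trend (log2 per 1% RPS), the pan-epithelial covariate gave -0.0042 for Lgr5, -0.00061 for Axin2, and 0.00026 for Ephb2. Axin2 was -0.00026 with DESeq2 size factors, -0.00031 with DESeq2's test, and -0.0054 with the leukocyte covariate, which gave -0.00064 for Wnt3. With single mice left out, Axin2 ran from -0.0080 to 0.0062 and Wnt3 from -0.0085 to 0.029. Pairs of the 10 genes with an adjusted permutation p of at most 0.05 fell from 3 to 0 with a prior count of 0.5 and ran from 0 to 7 with single mice left out. The cause of these changes was not tested.

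Over all genes, 160 passed with 10% RPS, 368 with DESeq2's Wald test, 285 with no fold threshold, 94 with the leukocyte covariate, 98 with only those 2 diets, 0 with the pan-epithelial covariate, and 14 to 344 with single mice left out. The 4 list genes past the threshold with 10% RPS (Tnfrsf19, Grem1, Actg2, Slc26a3) kept the call in 11, 15, 13, and 7 of the 20 fits with 1 mouse left out, and lost it with the pan-epithelial covariate. With the leukocyte covariate Slc26a3 kept it (edgeR adjusted p = 0.0435), while Tnfrsf19, Grem1, and Actg2 lost it (0.0799, 0.0598, and 0.0603). Among list genes named for 10% RPS, with single mice left out, Lrig3 ran from -0.088 to 0.0022 and Cdx2 from -0.029 to 0.13. With 5% RPS, 30 passed, 244 with DESeq2's Wald test, 65 with the leukocyte covariate or with only those 2 diets, 0 with the pan-epithelial covariate, and 0 to 114 with single mice left out. For the trend, 170 passed, 680 with DESeq2's Wald test, 539 with the rank of the dose, 103 with no filter, 49 with the leukocyte covariate, 0 with the pan-epithelial covariate, and 0 to 674 with single mice left out. For any difference, 14 passed, 474 with DESeq2's test, 0 with the pan-epithelial covariate, and 3 to 103 with single mice left out. Depth limits Wnt3 most, at 3 to 28 counts per mouse. No paired analysis was possible because the labels give no replicate numbers that diets share, and the numbers 1 to 5 used here only name mice within a diet.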

Other observations

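Among the lists for epithelium outside the crypt base, 1 gene passed the threshold with 10% RPS. Of the 8 colonocyte markers, 5 had estimates below zero, with a median of -0.19 and 0 past the threshold downward, and Slc26a3, the chloride-bicarbonate exchanger of surface colonocytes, rose by 0.61 ± 0.16 (edgeR adjusted p = 0.0487) from 1202 ± 167 CPM without RPS to 1833 ± 412 CPM (SD, n = 5 per diet). That call was kept in 7 of 20 fits with 1 mouse left out, with an edgeR adjusted p of 0.14 without mouse 1 with 10% RPS. Slc9a3, the sodium-hydrogen exchanger of the same cells, had -1.05 ± 0.29 (edgeR adjusted p = 0.0671). All 4 goblet and deep crypt secretory markers had estimates below zero with 10% RPS and 0 passed, with Spink4 at -0.56 ± 0.14, Muc2 at -0.59 ± 0.23, Agr2 at -0.35 ± 0.17, and Reg4 at -0.34 ± 0.16. Spink4 passed for the trend (edgeR adjusted p = 0.0488) and in 5 of the 20 fits with 1 mouse left out, and lost the call with the pan-epithelial and leukocyte covariates (edgeR adjusted p = 0.53 and 0.10). With the pan-epithelial covariate, 0 of all genes passed for the trend. In the colon, Reg4 marks deep crypt secretory cells, which neighbor the Lgr5+ stem cells.

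The hindgut regulators Cdx1 and Cdx2 had -0.14 ± 0.08 and 0.04 ± 0.11 with 10% RPS, and neither passed the threshold. Of the 6 fibroblast markers, 5 had estimates above zero, with a median of 0.34, and 0 passed the threshold. Col3a1 and Col1a1 had 0.58 ± 0.20 and 0.68 ± 0.24 (edgeR adjusted p = 0.13 for both), and Pdgfra, named after its value was seen as the 1 below zero, had -0.31 ± 0.13 (edgeR adjusted p = 0.18). Ptprc of the leukocyte list had 1.26 ± 0.51 (adjusted p = 0.19), which passed at 1.83 without mouse 2 of the 0% RPS diet.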
